A study of Rattus norvegicus with 47 samples.

Results

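Immediate early genes were followed in the livers of rats that differed in vitamin A intake or had been given all-trans-retinoic acid (RA), the acid form of vitamin A that binds the retinoic acid receptors. A list of 40 genes was used, and a gene counted as measured when at least 1 probe set of the array carried its symbol alone. By that rule 39 of the 40 were measured, among 14217 named genes and 31099 probe sets in all; Btg2 had no such probe set. Where a gene had several probe sets (17 genes, 67 probe sets in all) the one with the highest mean over all arrays stood for it. Values are log2 hybridization signals relative to the median of the same array, so 0 is the array median and a difference of 1 is a doubling. Such levels depend on the probes and cannot be set against each other between genes.

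Immediate early genes are transcribed within minutes of a stimulus from factors that are already present in the cell, so their induction needs no new protein synthesis. The classical members encode transcription factors, such as the AP-1 subunits of the FOS and JUN families and the zinc finger protein EGR1, which act on later genes; others encode inhibitors that shut the signal off, such as the phosphatases DUSP1 and DUSP6 and the mRNA-destabilizing protein ZFP36. In liver they are known to respond to growth factors, cytokines, fasting hormones, partial hepatectomy and handling of the tissue, and most of their mRNAs are short-lived.

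The 47 arrays covered 13 groups of female Sprague-Dawley rats in 3 experiments, with liver RNA of a single rat on each array and all animals 8 weeks old at death. In the diet experiment, pups of dams kept on a vitamin A-deficient purified diet received from weaning that diet with 0 mg retinol per kg (deficient, 5 rats), 0.4 mg (marginal, 7), 4 mg (adequate, 6) or 100 mg (supplemented, 2). In the hour series, rats raised on the deficient diet received vehicle and were killed at 0 h (3 rats), or about 100 µg RA and were killed 3 h (3), 6 h (3), 10 h (4) or 16 h (3) later. In the minute series, rats purchased at 6 weeks and fed a stock diet were given the oil vehicle, lost access to food and were lightly anaesthetized with isoflurane 16 h later. They then received vehicle and were killed at 0 min (2 rats), or about 25 µg RA (10 µg per 100 g body weight) bound to albumin and were killed at 30, 60 or 90 min (3 each). The injection went into a surgically exposed iliac vein and the incision was stapled. All rats were killed with carbon dioxide. Both vehicle groups, whose titles call them untreated, were killed at time 0, so in both series RA and the time since the treatment, with the anaesthesia and surgery of the minute series, cannot be told apart.

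Each array is labelled as a separate rat, and no 2 arrays held identical values. The array median lay between 10.0 and 69.8 times the lowest value of its array, and 5 to 3172 probe sets per array sat at that lowest value. In the diet experiment the database numbers of the arrays were taken as 2 runs, of 12 and of 8 arrays. In the first run the number of deficient replicate 5 stands apart from the others, and it was not given a run of its own. The median stood at 39.4 to 52.3 times the lowest value in the first run and 10.0 to 22.0 times in the second. Comparisons between diets were adjusted for the run, which does not separate deficient replicate 5. The 3 arrays of 16 h correlated with each other least (0.656 to 0.692, against 0.765 or more within the other hour groups). The 8 measured hepatocyte markers, albumin among them, lay between 7.14 and 10.94 on every array. Only tissue RNA was measured, so fewer cells of a type and less RNA per cell cannot be told apart in any result here.

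Of the 39 genes, 20 had a mean above the array median in all 13 groups, 15 in some, and 4 in none (Fosb, Fosl2, Maff and Egr2). Values at the lowest level of an array occurred for Fos, Egr3 and Nr4a2 on 1 diet array each, for Rgs1 on 2 diet arrays and for Fosb on 2 minute arrays. After a filter on dim probe sets, 38 genes were tested in the diet experiment (without Maff), 39 in the hour series and 37 in the minute series (without Fosb and Fosl2). A gene was called when its Benjamini-Hochberg adjusted p in limma, over every probe set tested in that experiment, was under 0.05. Over 16 pairwise comparisons 15 of the 39 genes were called at least once.

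The promoters of the genes were searched for binding motifs of factors known to drive early genes. RefSeq (GRCr8) gave a window of 250 bases before and 50 after the transcription start for 29 of the 39 genes, among 33465 such windows. The CArG box, bound by serum response factor, occurred in 5 of the 29 (17.2%: Egr1, Egr2, Klf6, Srf and Zfp36) and in 1.64% of all windows. The core of the cyclic AMP response element, TGACG on either strand, occurred in 20 of the 29 (69%) and in 21.2% of all windows; its palindrome TGACGTCA, which holds TGACG on both strands, occurred in 4 (13.8%: Dusp1, Ier2, Jund and Maff) and in 1.83%. The EGR1 sites GCGGGGGCG and GCGTGGGCG occurred in 4 (13.8%) and 2 (6.9%), against 2.73% and 0.544%. The AP-1 site TGANTCA occurred only in Klf9 (3.45%, against 7.33% of all windows). These matches are descriptions of the letters and not evidence of binding. Of the 7 genes called higher at a minute time against vehicle, 6 had a window; 2 of these (Egr1 and Zfp36) held a CArG box and 5 held TGACG.

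The following 4 promoters, from 250 bases before to 20 bases after the start, are shown because Zfp36, Gadd45b and Rhob rose at 30 min, yet no motif searched was found in all 3, and because Nr4a1, which differed over the minute series, holds several copies of TGACG. The Nr4a1 window lies inside the gene (chr7:134247153-134268044), so its start is an internal one and not the first base of the gene. Capitals mark motif matches, read 5′ to 3′ on the gene's strand: in Zfp36 (chr1:92799089-92799358, minus strand) a GCGGGGGCG match from -79 to -71 and a CArG box from -32 to -23; in Gadd45b (chr7:9430699-9430968, minus strand) CGTCA, the reverse of TGACG, from -3 to 2; in Rhob (chr6:37085185-37085454, minus strand) TGACG from -237 to -233; in Nr4a1 (chr7:134259888-134260157, plus strand) CGTCA starting at -246, -226, -82 and -53 and CGCCCCCGC, the reverse of GCGGGGGCG, from -73 to -65.
Zfp36: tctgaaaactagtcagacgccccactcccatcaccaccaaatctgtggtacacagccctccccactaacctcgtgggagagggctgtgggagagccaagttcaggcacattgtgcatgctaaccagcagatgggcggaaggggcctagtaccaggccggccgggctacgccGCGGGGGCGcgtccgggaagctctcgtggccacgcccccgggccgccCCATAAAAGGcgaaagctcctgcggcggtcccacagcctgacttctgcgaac
Gadd45b: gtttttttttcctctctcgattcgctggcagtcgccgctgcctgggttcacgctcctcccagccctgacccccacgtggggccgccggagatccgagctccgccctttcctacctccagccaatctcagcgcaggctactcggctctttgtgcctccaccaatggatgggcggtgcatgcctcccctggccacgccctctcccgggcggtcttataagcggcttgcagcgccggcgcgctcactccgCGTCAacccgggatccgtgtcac
Rhob: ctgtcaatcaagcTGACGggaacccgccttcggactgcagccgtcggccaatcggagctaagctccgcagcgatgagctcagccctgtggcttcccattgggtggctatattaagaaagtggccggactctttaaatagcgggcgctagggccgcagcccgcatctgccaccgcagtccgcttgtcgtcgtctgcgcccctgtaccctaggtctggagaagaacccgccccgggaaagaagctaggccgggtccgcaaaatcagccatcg
Nr4a1: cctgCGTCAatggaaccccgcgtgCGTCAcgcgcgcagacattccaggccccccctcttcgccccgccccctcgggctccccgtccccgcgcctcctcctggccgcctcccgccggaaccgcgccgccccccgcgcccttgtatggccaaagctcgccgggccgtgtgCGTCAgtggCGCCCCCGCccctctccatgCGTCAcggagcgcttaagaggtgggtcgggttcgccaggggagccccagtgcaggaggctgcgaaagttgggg

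The minute series asks what liver mRNA does in the first 90 min after intravenous RA. Against vehicle, 6 of the 37 tested genes were higher at 30 min, 3 at 60 min and 5 at 90 min, and none was lower. The count at 30 min was 3 without vehicle replicate 1 or without 30 min replicate 1; that at 60 min was 1 without either vehicle rat, and that at 90 min was 1 without vehicle replicate 1 and 2 without vehicle replicate 2. Those called at 30 min were Fos, Egr1, Zfp36, Rgs1, Gadd45b and Rhob. Zfp36, Rgs1 and Rhob were called at all 3 times, Egr1 at 30 and 90 min, Fos and Gadd45b at 30 min alone, and Gadd45a at 90 min alone. Over all 22781 probe sets tested, 0.0878% were called at 30 min, 0.386% at 60 min and 0.505% at 90 min; 0.0834%, 0.219% and 0.334% were called higher.

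Fos, which encodes the inducible AP-1 subunit (gene at chr6:110852188-110855054), had the clearest pulse. It read -0.65 and -0.60 in the vehicle rats and 1.86, 2.33 and 1.89 at 30 min. It then read -0.05, -0.09 and -0.59 at 60 min and -1.17, -1.02 and -1.32 at 90 min. The 30 min rats lay above and the 90 min rats below every other rat of the series. The rise at 30 min was 2.65 ± 0.34 (SE; 6.29-fold, adjusted p = 0.0055), and from 30 to 60 min Fos fell by 2.27 ± 0.30 (4.82-fold, adjusted p = 0.00733). The rise was called with any 1 of the 11 arrays left out (highest adjusted p 0.0432), and the fall in all but 1 case, when 30 min replicate 2 was left out (-2.12, adjusted p = 0.113). A second, dimmer Fos probe set was not called at 30 min (-0.60 ± 1.44, adjusted p = 0.951), and with the mean of both probe sets the 30 min value was 1.03 (adjusted p = 0.668) and the 60 against 30 min value -1.30 (adjusted p = 0.683).

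Egr1, the zinc finger transcription factor, was highest at 30 min, lower at 60 min and in between at 90 min. The vehicle rats read 2.61 and 2.62, the 30 min rats 4.30, 4.00 and 3.88, the 60 min rats 3.09, 3.01 and 2.70, and the 90 min rats 3.64, 3.56 and 3.70. No group overlapped another. The difference from vehicle was 1.44 ± 0.16 at 30 min (2.72-fold, adjusted p = 0.00244) and 1.02 ± 0.16 at 90 min (2.02-fold, adjusted p = 0.00788). From 30 to 60 min it fell by 1.13 ± 0.14 (adjusted p = 0.00501), while the second rise, 0.70 ± 0.14 from 60 to 90 min, missed the threshold (adjusted p = 0.0743; 0.0492 after quantile normalization). The 90 min call was lost without vehicle replicate 1 (adjusted p = 0.0885) or 2 (0.0747).

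**Figure D1:**
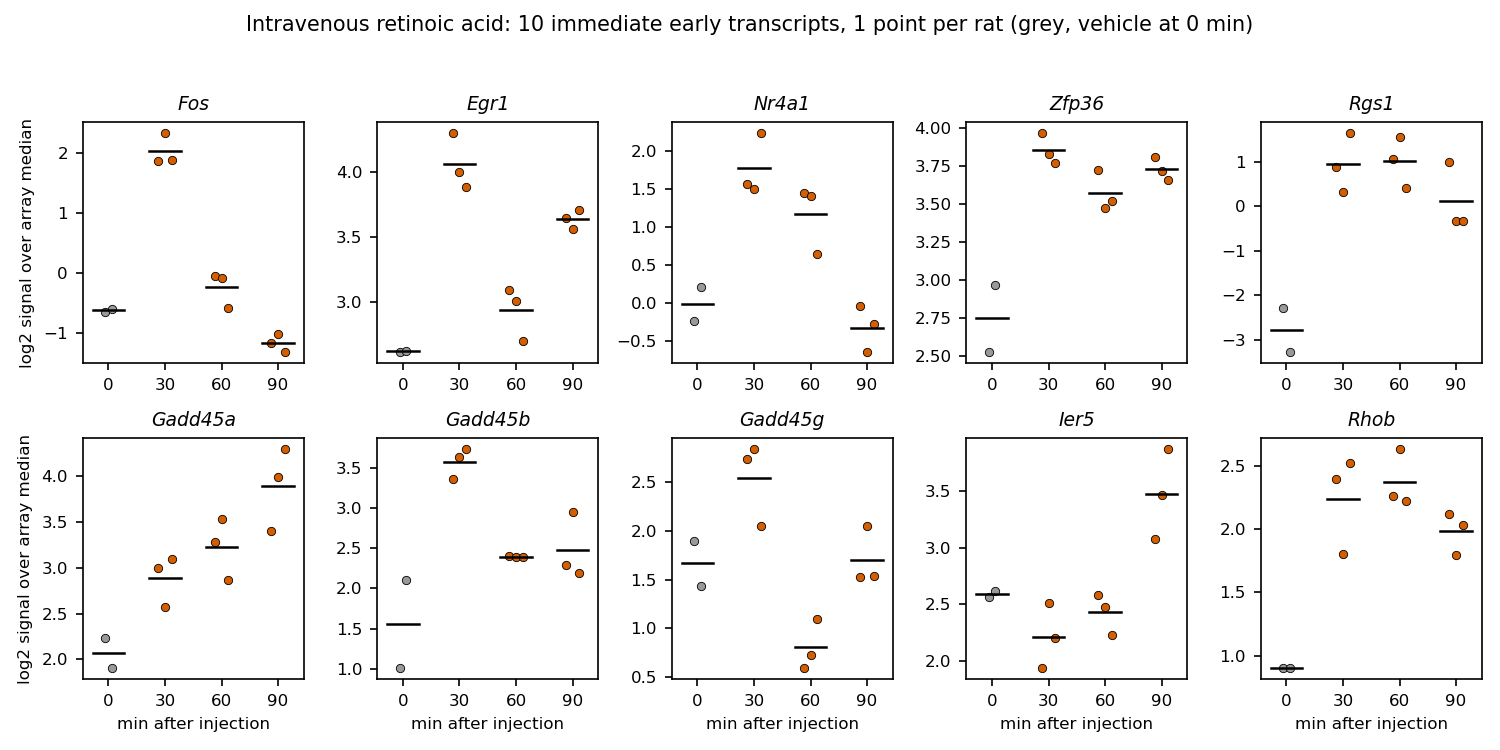
Level of 10 immediate early genes in each liver of the minute series, as log2 signal relative to the array median (y axis), by minutes after injection of RA (x axis; 0 is vehicle). Each point is 1 rat and each bar a group mean; Fos is above 1.8 in the 3 rats of 30 min and below 0 in every other rat, while Gadd45a is highest at 90 min.

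Zfp36, which binds AU-rich mRNA and speeds its decay (chr1:92796628-92799108), stayed up at all 3 times. It read 2.53 and 2.97 in vehicle rats, 3.97, 3.83 and 3.77 at 30 min, 3.72, 3.47 and 3.52 at 60 min and 3.81, 3.72 and 3.65 at 90 min. Every RA rat was above both vehicle rats. The differences were 1.11 ± 0.15 (2.16-fold, adjusted p = 0.008), 0.82 ± 0.15 (1.77-fold, adjusted p = 0.0261) and 0.98 ± 0.15 (adjusted p = 0.00785). All 3 calls were lost without vehicle replicate 1 (0.89, 0.60 and 0.76; adjusted p = 0.101, 0.321 and 0.137). The 30 min call was also lost without 30 min replicate 1 (adjusted p = 0.0513), and the 60 min call without 60 min replicate 1 (0.0825) or 3 (0.0831).

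Rgs1, a GTPase-activating protein that turns off heterotrimeric G proteins (chr13:58568844-58573187), was near background in vehicle rats and above the array median in most RA rats. The vehicle rats read -2.29 and -3.27, against 0.89, 0.32 and 1.64 at 30 min, 1.07, 1.54 and 0.41 at 60 min and 1.00, -0.32 and -0.32 at 90 min. All 9 RA rats were above both vehicle rats. The probe set passed the filter on all 9 RA arrays and on 0 of the 2 vehicle arrays, whose lowest values were -4.82 and -4.41, so the size of the difference depends on how low values are treated. The differences were 3.73 ± 0.53 (adjusted p = 0.008), 3.78 ± 0.53 (adjusted p = 0.00633) and 2.90 ± 0.53 (adjusted p = 0.0251). With an offset of 0.25 of the array median they were 2.45 (adjusted p = 0.0317), 2.50 (0.0121) and 1.76 (0.0764), and the 90 min call was lost. Without vehicle replicate 2 none of the 3 calls held (3.24, 3.29 and 2.41; adjusted p = 0.0753, 0.0567 and 0.206). The 30 min call was lost without 30 min replicate 1 (adjusted p = 0.0527) or 3 (0.0583), and the 90 min call without 90 min replicate 1 (0.0747) or vehicle replicate 1 (0.06).

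Rhob, which encodes a small GTPase of endosomes and the cytoskeleton (chr6:37083030-37085204), read 0.91 and 0.90 in vehicle rats. It read 2.39, 1.80 and 2.52 at 30 min, 2.26, 2.63 and 2.22 at 60 min and 2.12, 1.79 and 2.03 at 90 min. No RA rat reached as low as the vehicle rats. The differences were 1.33 ± 0.22 (2.52-fold, adjusted p = 0.0399), 1.47 ± 0.22 (2.76-fold, adjusted p = 0.00956) and 1.08 ± 0.22 (adjusted p = 0.0497). The 30 min and 90 min calls were close to the threshold and were lost in 8 and 9 of 11 arrays left out in turn (highest adjusted p 0.227 and 0.26), and the 60 min call without vehicle replicate 1 (0.088) or 2 (0.074).

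The GADD45 genes, which encode stress sensors that slow the cell cycle and activate p38 and JNK kinases, reached their highest levels at different times. Gadd45b (chr7:9428689-9430991) read 1.01 and 2.10 in vehicle rats, 3.37, 3.63 and 3.73 at 30 min, 2.40, 2.39 and 2.39 at 60 min and 2.29, 2.95 and 2.19 at 90 min. It was higher by 2.02 ± 0.28 at 30 min (4.06-fold, adjusted p = 0.008), a call lost without vehicle replicate 1 (1.48, adjusted p = 0.0734). Gadd45a (chr4:97484497-97486799) read highest at 90 min, with 2.24 and 1.91 in vehicle rats, 3.00, 2.57 and 3.10 at 30 min, 3.28, 3.53 and 2.87 at 60 min and 3.41, 3.99 and 4.30 at 90 min. Its difference at 90 min was 1.83 ± 0.25 (3.55-fold, adjusted p = 0.0035), lost without vehicle replicate 2 (1.66, adjusted p = 0.0589); at 60 min it was 1.16 ± 0.25 (adjusted p = 0.0738). Gadd45g was called in neither direction against vehicle but fell from 2.74, 2.84 and 2.06 at 30 min to 0.59, 0.73 and 1.09 at 60 min, with vehicle rats between at 1.90 and 1.44. The fall, 1.75 ± 0.24 (3.35-fold, adjusted p = 0.00983), was lost without 30 min replicate 1 (adjusted p = 0.0538) or 2 (0.0826) or 60 min replicate 1 (0.0515).

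From 30 to 60 min 3 of 37 genes were called, all lower (Fos, Egr1 and Gadd45g), against 0.0615% of all probe sets; without 30 min replicate 2 Egr1 alone was called. From 60 to 90 min limma called none of the 37 (12 at an unadjusted p under 0.05; 2 adjusted calls without 90 min replicate 1; 0.0966% of all probe sets were called). The smallest p there belonged to Ier5, a regulator of the heat shock factor HSF1, which read 2.58, 2.48 and 2.23 at 60 min and 3.07, 3.47 and 3.87 at 90 min (1.04 ± 0.20, adjusted p = 0.0608; 0.0449 after quantile normalization). Nr4a1, an orphan nuclear receptor, read -0.24 and 0.21 in vehicle rats, 1.57, 1.50 and 2.24 at 30 min, 1.44, 1.41 and 0.64 at 60 min and -0.05, -0.65 and -0.28 at 90 min. All 30 and 60 min rats were above every vehicle and 90 min rat, with 1.79 ± 0.33 at 30 min (adjusted p = 0.0858) and -1.49 ± 0.30 from 60 to 90 min (adjusted p = 0.0743). Tested over all 4 times at once, 10 of 37 genes differed, against 0.549% of all probe sets: Fos (adjusted p = 0.000439), Egr1 (0.000667), Rgs1 (0.00926), Nr4a1 (0.01), Zfp36 (0.01), Gadd45b (0.0129), Gadd45a (0.0147), Gadd45g (0.0159), Rhob (0.0192) and Ier5 (0.024).

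Most genes that passed the filter lay above vehicle at 30 min, called or not. Of the 37, 33 had a difference above 0, against 38.6% of all probe sets, and the median was 0.58, against -0.10 over all probe sets. At 60 and 90 min 26 and 27 of 37 lay above 0 (39.9% and 38.3% of all), with medians of 0.39 and 0.26 (-0.10 and -0.11 over all). In 20 genes all 3 rats of 30 min were above both vehicle rats, and in 15 and 12 those of 60 and 90 min, against 8.46%, 9.29% and 8.75% of all probe sets. The 3 comparisons share the same 2 vehicle rats. The filter asks for 2 arrays of the series, so a gene can pass it through RA arrays alone, as Rgs1 did. Such a gene lies above vehicle by that route, and the counts here include any of this kind. Quantile normalization, which moved the median over all probe sets at 30 min from -0.10 to -0.03, left 33 of 37 above 0 there.

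By role, all 7 tested AP-1 genes were above 0 at 30 min (median 0.95), and Fos was the 1 called. Jun, the partner of FOS, read 2.03 and 1.81 in vehicle rats and 3.35, 2.46 and 2.78 at 30 min, then 1.81, 2.26 and 1.27 at 60 min. All 3 EGR genes, all 5 KLF zinc finger genes (median 0.20, none called) and all 3 orphan nuclear receptors (median 0.95, none called) were above 0 at 30 min. Myc, the growth-promoting transcription factor, read 0.72 and 1.79 in vehicle rats, 2.71, 2.85 and 2.12 at 30 min and 0.66, 1.13 and 0.51 at 60 min. Dusp1, the phosphatase that inactivates MAP kinases, read 3.47 and 4.93 in vehicle rats and 5.48, 5.82 and 5.08 at 30 min. Both genes had all 3 rats of 30 min above the vehicle rats, but the vehicle rats differed by more than 1 from each other. Among genes not called, the differences ran from -0.38 (Ier5) to 2.17 (Maff) at 30 min, from -0.87 (Gadd45g) to 1.36 (Maff) at 60 min and from -0.96 (Nr4a2) to 1.21 (Junb) at 90 min. Maff was dim in the vehicle rats (-3.1 and -2.48), so the size of its differences depends on how low values are treated.

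**Figure D2:**
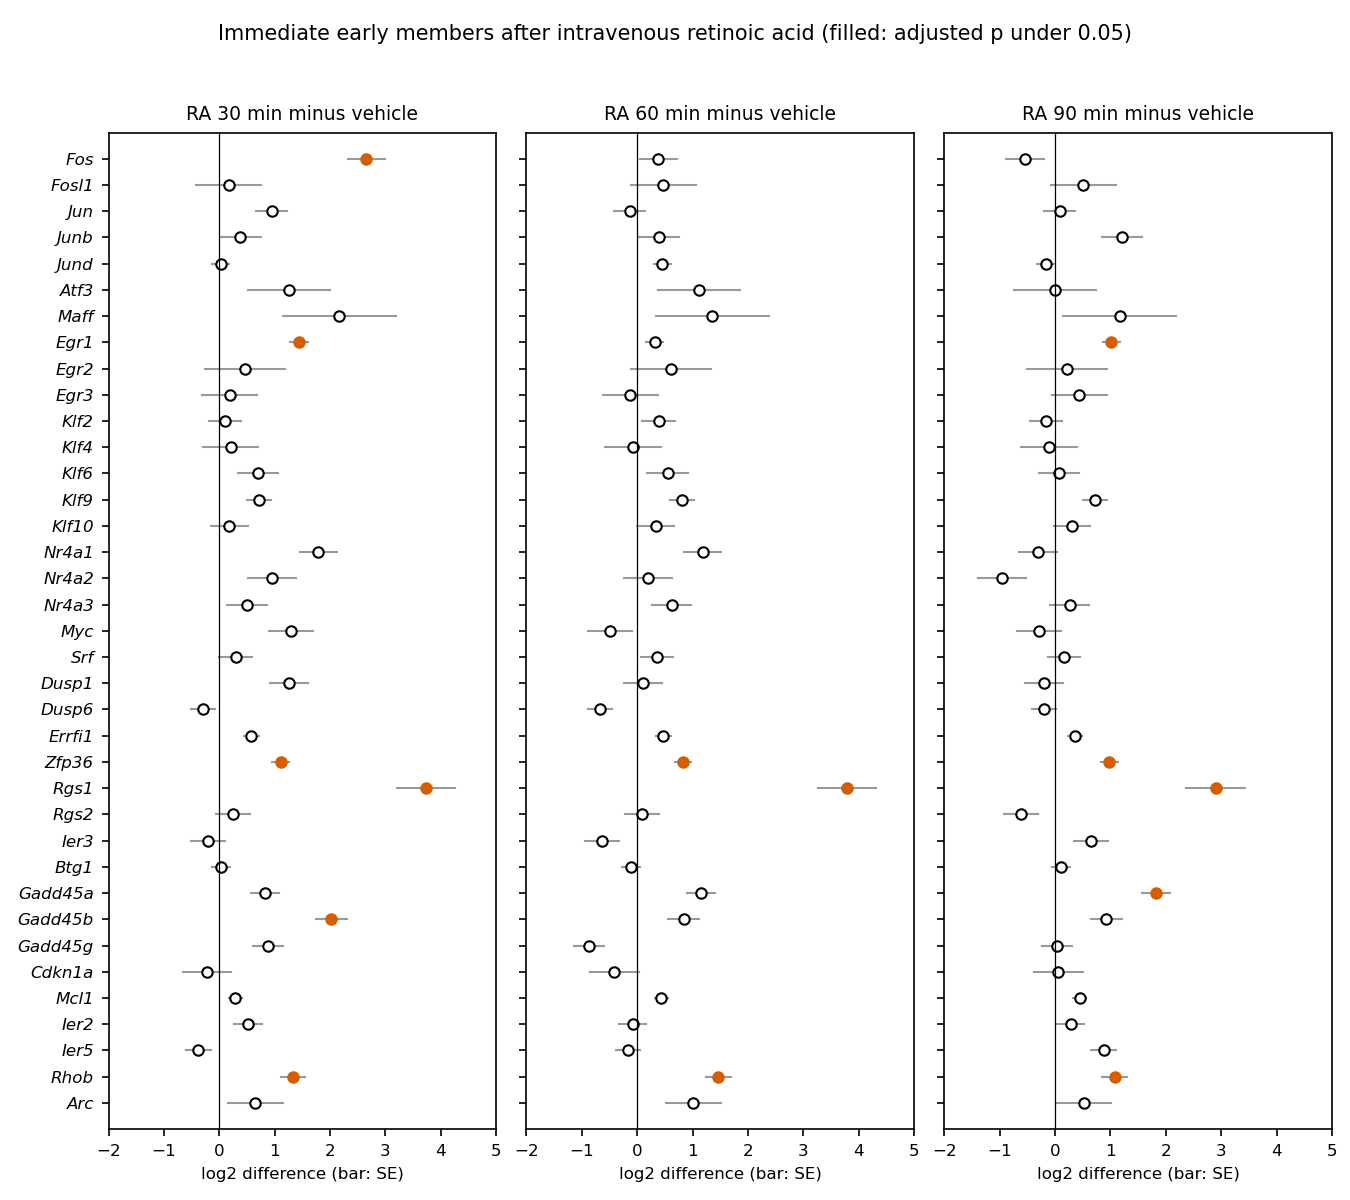
Log2 difference of RA rats from vehicle rats (x axis, with the limma standard error as a bar) for each of the 37 tested immediate early genes (y axis, ordered by role) at 30, 60 and 90 min, 3 rats against 2. Filled points have an adjusted p under 0.05; at 30 min 33 of 37 points lie right of 0 and 6 are filled.

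Other early response genes, listed with earlier results known, were counted in the same way. Of 71 further early response genes, 63 were measured and 57 tested; 5, 10 and 11 were higher at 30, 60 and 90 min and 0, 1 and 1 lower (Nfil3, -1.17 and -1.77), against 0.0834%, 0.219% and 0.334% of all probe sets called higher. Cxcl1, a neutrophil-attracting chemokine, was near background in vehicle rats (-3.24 and -3.41, below the filter on both arrays). Its differences of 3.53 ± 0.44 at 30 min (adjusted p = 0.0055), 6.31 at 60 min and 7.82 at 90 min became 2.03 (0.0621, no longer called), 4.55 and 6.03 with the offset. Nfkbia, the inhibitor of NF-kB, rose by 1.36, 1.39 and 2.34, and Cebpb, an acute phase transcription factor, by 1.44, 1.23 and 1.53. Il1b, which encodes interleukin 1 beta, was higher by 2.34 at 60 min and 2.66 at 90 min, and Ccl2, a monocyte-attracting chemokine, by 3.66 at 90 min. None of 18 measured upstream kinases and factors (of 28 listed) and none of 8 measured heat shock genes (of 11) was called by limma at any of the 3 times; at an unadjusted p under 0.05 there were 2 of the former at each time and 1, 3 and 0 of the latter.

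RA targets and neutrophil markers were measured in the same rats. Of 10 measured direct RA targets (of 12 listed), 0, 4 and 6 were higher at 30, 60 and 90 min, read against the same shares of all probe sets; Cyp26a1, the RA-degrading enzyme, read 3.05 above vehicle at 30 min (adjusted p = 0.0696), 5.43 at 60 min and 5.61 at 90 min. The summed linear level of 5 measured neutrophil markers (of 8 listed), in units of the array median, was 1.89 to 2.01 in vehicle rats, 1.05 to 2.00 at 30 min, 3.30 to 3.87 at 60 min and 4.50 to 8.28 at 90 min, and 1 of the 2 tested (S100a9) was called at 90 min. Of 10 measured Kupffer cell markers (of 12 listed) limma called none (2, 2 and 0 at an unadjusted p under 0.05), and their summed level was 91.6 to 149 in vehicle rats and 103 to 149 in RA rats. The part of neutrophils in the immediate early values was not tested at any of the 3 times. The summed level of 3 measured erythroid markers was 166 to 183 in vehicle rats, 156 to 186 at 30 min, 196 to 264 at 60 min and 198 to 203 at 90 min. That of sinusoidal endothelial markers was 96.0 to 97.0 in vehicle rats and 83.6 to 89.4 at 30 min, and overlapped vehicle later. Cholangiocyte markers summed to 4.92 to 4.94 in vehicle rats and 3.56 to 3.89 at 60 min, and overlapped at 30 and 90 min. The sums of T and NK cell and of B cell markers overlapped the vehicle range at all 3 times.

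The hour series followed vitamin A-deficient rats after a larger dose. Against vehicle, none of 39 genes was called at 3 h or 6 h, Klf9 was lower at 10 h, and 7 genes were lower at 16 h. None was called higher at any hour. The shares over all 28869 probe sets tested were 0.0762% at 3 h, 0.201% at 6 h, 0.488% at 10 h and 6.11% at 16 h, where 5.89% were called lower.

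At 3 h, limma called none of 39 (4 at an unadjusted p under 0.05), and the genes with the smallest p lay above vehicle. Dusp6, the ERK-specific phosphatase, read 3.21, 3.99 and 3.29 in vehicle rats and 4.16, 4.65 and 4.10 at 3 h (0.80 ± 0.25, adjusted p = 0.892). Gadd45a read 1.46, 1.73 and 2.56 in vehicle rats and 3.57, 2.83 and 2.88 at 3 h (1.18 ± 0.37, adjusted p = 1). Klf10, a TGF-beta-inducible repressor (chr7:71352612-71358680), read 2.88, 2.77 and 3.24 in vehicle rats and 3.80, 3.70 and 3.34 at 3 h (0.65 ± 0.27, adjusted p = 1). In all 3 genes the groups did not overlap, but none passed the adjustment over all probe sets. Of the 39 genes, 5 lay wholly above vehicle and 3 wholly below. The matching share of all probe sets is not given here.

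At 6 h the smallest p belonged to genes below vehicle, again with none of 39 called (5 at an unadjusted p under 0.05). Jun read 2.54, 3.62 and 2.28 in vehicle rats and 1.41, 1.00 and 1.73 at 6 h (-1.44 ± 0.36, adjusted p = 0.143). Btg1, an anti-proliferative gene (chr7:33228149-33230406), read 7.05, 7.45 and 7.22 in vehicle rats and 6.45, 6.42 and 6.39 at 6 h (-0.82 ± 0.21, adjusted p = 0.15). Rhob read 1.71, 2.53 and 2.54 in vehicle rats and 0.73, -0.06 and 1.12 at 6 h (-1.66 ± 0.49, adjusted p = 0.328). With arrays weighted by quality all 3 were called (adjusted p = 0.024, 0.00538 and 0.0239), and Btg1 was also called after quantile normalization (0.00388). Over all 28869 probe sets the calls at 6 h went from 58 to 272 with the weights and to 141 after quantile normalization. From 3 to 6 h none was called (9 at an unadjusted p under 0.05; 0.0208% of all probe sets were called), the smallest p being for Cdkn1a (-1.52 ± 0.51, adjusted p = 0.987), Jun (-1.03 ± 0.36, adjusted p = 1) and Dusp6 (-0.67 ± 0.25, adjusted p = 1). Dusp6 read 3.48, 3.54 and 3.88 at 6 h.

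At 10 h 1 of 39 genes was called. Klf9, a Krüppel-like factor driven by thyroid hormone and glucocorticoids in other settings, read 4.01, 4.34 and 5.17 in vehicle rats and 3.53, 3.33, 3.21 and 3.69 at 10 h. Every 10 h rat was below every vehicle rat, and the difference was -1.07 ± 0.24 (2.10-fold lower, adjusted p = 0.0368). It was lost in 9 of 16 arrays left out in turn, with the highest adjusted p of 0.561 without vehicle replicate 3, the highest vehicle rat. The dimmer probe sets of Klf9 read -1.14 and -1.76 and were not called (adjusted p = 0.81 and 0.632). Gadd45a read 0.36, 1.07, 0.16 and 1.00 at 10 h, all below vehicle (-1.27 ± 0.35, adjusted p = 0.115). Dusp1 read 2.25, 2.78 and 3.20 in vehicle rats and 3.15, 5.56, 3.55 and 4.95 at 10 h (1.56 ± 0.46, adjusted p = 0.158), with 1 of the 4 rats inside the vehicle range. Between 6 and 10 h Gadd45a fell from 2.45, 2.18 and 2.23, by 1.64 ± 0.35 (3.11-fold, adjusted p = 0.045), against 0.135% of all probe sets called there. That call was lost in 9 of 16 arrays left out (highest adjusted p 0.298) and without the filter on dim probe sets (0.0512). Next to it stood Rgs2, a G protein inhibitor, with -0.14, -0.04 and 0.83 at 6 h and 1.84, 1.71, 1.85 and 1.73 at 10 h (1.56 ± 0.43, adjusted p = 0.216), and Junb, an AP-1 subunit, with 0.87, 1.28 and 0.96 at 6 h and -0.30, -0.95, 0.23 and -2.74 at 10 h (-1.98 ± 0.61, adjusted p = 0.371).

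At 16 h the 7 genes called were all lower and came from 4 roles: Klf9, the inhibitors Dusp6 and Zfp36, the growth arrest and survival genes Btg1, Cdkn1a and Mcl1, and Ier5. The share of genes called lower over all probe sets was 5.89%, the median was -0.51 for the 39 genes and -0.39 for all probe sets, and 11 of 39 were above 0, against 34.3% of all. In 12 of 39 genes all 3 rats of 16 h were below all vehicle rats, against 13.8% of all probe sets. No AP-1, EGR or NR4A gene was called by limma (0, 1 and 1 at an unadjusted p under 0.05). Without vehicle replicate 2 Btg1 alone was called; without 16 h replicate 1 or vehicle replicate 3 the count was 3, and without 16 h replicate 2 it was 4.

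Btg1 read 5.70, 6.37 and 6.28 at 16 h, below every vehicle rat (7.05 to 7.45), a difference of -1.12 ± 0.21 (2.18-fold lower, adjusted p = 0.0032). It was called with any 1 of the 16 arrays left out (highest adjusted p 0.0296). Mcl1, an anti-apoptotic BCL2 relative, read 5.18, 5.56 and 5.43 in vehicle rats and 3.89, 4.20 and 4.91 at 16 h (-1.06 ± 0.23, 2.08-fold lower, adjusted p = 0.00767). Cdkn1a, the cell cycle inhibitor p21, read 1.85, 2.27 and 1.03 in vehicle rats, 3.24, 2.71 and 2.59 at 3 h, 1.39, 0.75 and 1.84 at 6 h, -0.07, 1.43, 0.66 and 1.92 at 10 h and -0.69, 0.45 and -1.13 at 16 h. Both genes had all 3 rats of 16 h below vehicle, and for Cdkn1a the difference was -2.17 ± 0.51 (4.50-fold lower, adjusted p = 0.0127). Without vehicle replicate 2 Mcl1 (adjusted p = 0.0573) and Cdkn1a (-1.90, adjusted p = 0.109) were lost, and Mcl1 also without 16 h replicate 1 (0.0523). A dimmer probe set of Cdkn1a read 1.18 ± 1.28 (adjusted p = 0.658), and the mean of its probe sets gave -0.50 (adjusted p = 0.746). The dimmer probe set of Mcl1 read -0.885 ± 0.33 and was not called (adjusted p = 0.102).

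Zfp36 read 1.98, 2.53 and 2.91 in vehicle rats and 1.16, -0.43 and 1.83 at 16 h (-1.62 ± 0.40, 3.08-fold lower, adjusted p = 0.0184). Ier5 read 2.84, 3.12 and 2.87 in vehicle rats and 1.39, 1.69 and 2.30 at 16 h (-1.15 ± 0.28, 2.22-fold lower, adjusted p = 0.0171). Neither overlapped vehicle, and each was lost for 3 of the 16 arrays: Zfp36 without 16 h replicate 2 (-0.98, adjusted p = 0.111), vehicle replicate 2 (0.0913) or 3 (0.126), Ier5 without 16 h replicate 1 (0.0788), vehicle replicate 2 (0.109) or 3 (0.0783). Klf9 read 3.55, 3.28 and 3.97 (-0.91 ± 0.26, 1.87-fold lower, adjusted p = 0.0359) and was lost for 4 arrays, vehicle replicate 3 the furthest (-0.57, adjusted p = 0.293). Dusp6 read 2.57, 2.70 and 2.73 (-0.83 ± 0.25, 1.78-fold lower, adjusted p = 0.0407) and was lost for 8 (highest adjusted p 0.272). Other probe sets of Ier5 (-0.22 and 0.66; adjusted p = 0.952 and 0.815) and Klf9 (0.88 and -1.95; adjusted p = 0.738 and 0.321) were not called, while of the 2 others of Dusp6 1 was (-1.04, adjusted p = 0.0179; the other -0.69, adjusted p = 0.132). The next gene was Nr4a1, with 0.40, 0.58 and 0.93 in vehicle rats and -2.35, -2.60 and -2.25 at 16 h (-3.04 ± 1.13, adjusted p = 0.103).

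**Figure D3:**
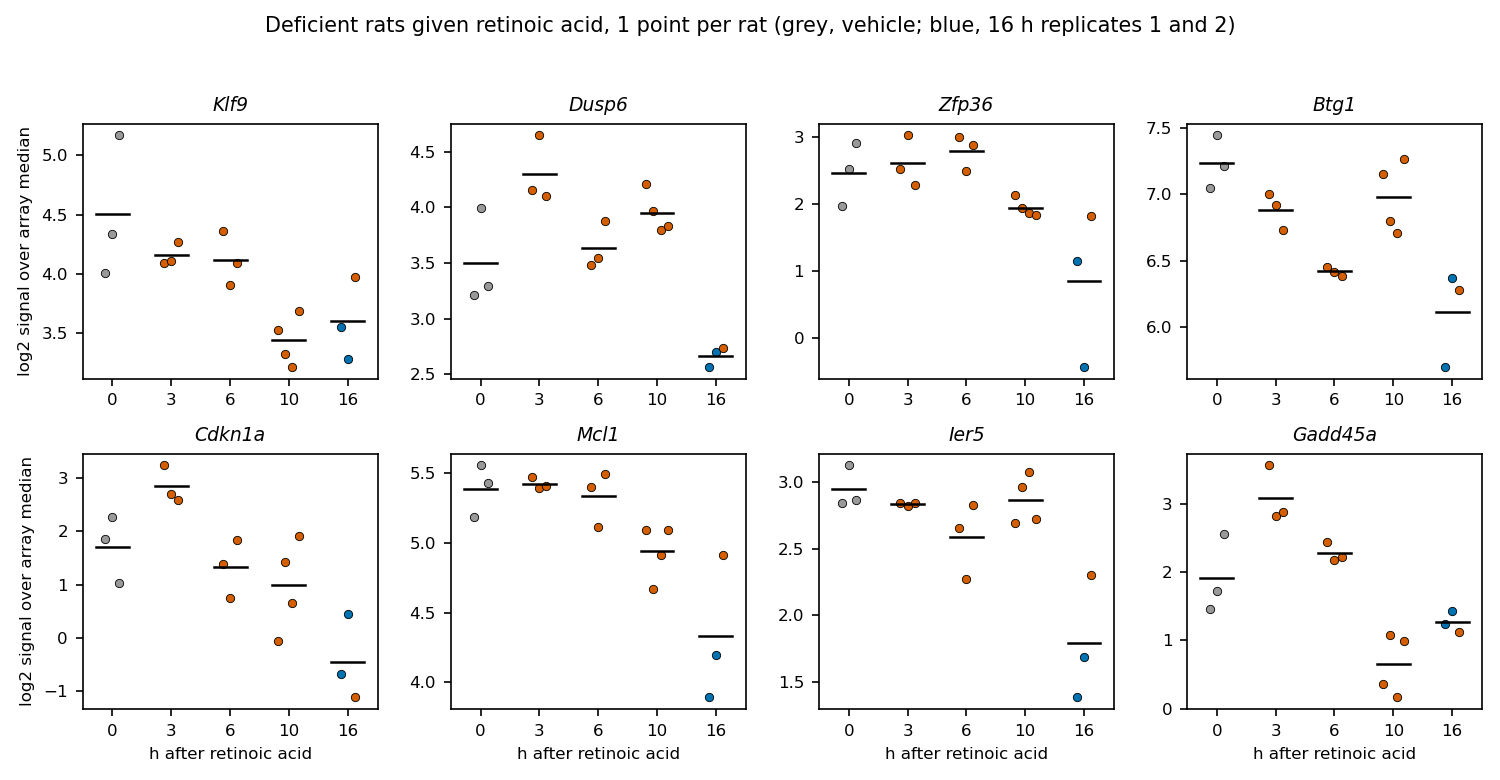
Level of 8 immediate early genes in each liver of the hour series, as log2 signal relative to the array median (y axis), by hours after RA (x axis; grey points at 0 are vehicle). Each point is 1 rat and blue points are replicates 1 and 2 of 16 h; Btg1, Mcl1, Zfp36 and Ier5 are lowest at 16 h, whereas Gadd45a is lowest at 10 h.

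Most of the 16 h calls moved with the scaling and with 2 arrays. Quantile normalization brought the median over all probe sets at 16 h from -0.39 to -0.06 and the calls over all probe sets from 64 higher and 1701 lower to 104 higher and 219 lower, and then Btg1 alone of the 39 was called; the other 6 kept their sign, with Cdkn1a nearest (-1.99, adjusted p = 0.0522), Zfp36 at -1.30 and Dusp6 at -0.22. Without 16 h replicates 1 and 2, an alternative added after these arrays were seen to stand apart, 1 of the 7 was called, Cdkn1a, with the 1 remaining rat of 16 h assumed to vary like the other groups; Btg1 then read -0.96 (adjusted p = 0.101), Mcl1 -0.48 (0.651) and Zfp36 -0.65 (0.717).

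Some markers of other liver cells were lower at 16 h, against 5.89% of all probe sets called lower. The summed level of 10 measured Kupffer cell markers (of 12) went from 132 to 163 in vehicle rats to 72.2 to 99.6 at 16 h, with 3 of 10 called lower; that of 8 sinusoidal endothelial markers (of 10) from 70.1 to 118 to 59.3 to 80.8, with 1 of 8 called lower; and that of all 10 stellate markers from 47.7 to 71.4 to 24.2 to 45.8, with 2 of 10 called lower and 1 higher. Neutrophil (3.63 to 4.14 in vehicle rats, 2.88 to 5.48 at 16 h), T and NK cell (4.86 to 5.86, 4.78 to 6.78) and erythroid sums (97.3 to 120, 58.0 to 162) overlapped, as did those of the hepatocyte markers (2872 to 4106, 3755 to 5371), of which 1 of 8, Alb, was called higher. No marker of the first 3 lists sat at the lowest array value on all arrays of either group. The Kupffer cell sum was already below vehicle earlier, with 101 to 116 at 6 h and 80.1 to 116 at 10 h. The endothelial and stellate sums overlapped vehicle at both of those times. The part of these cells in the lower immediate early levels was not tested at any hour. Of the 18 measured upstream kinases and factors 3 were lower (Elk4 -0.99, Ep300 -1.59 and Stat3 -1.41). Of 61 tested further early response genes 4 were lower (6.56%, near the share of all probe sets): Trib3 (-2.07), Nfil3 (-2.14), Irf1 (-1.33) and Vegfa (-1.23).

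From 10 to 16 h, where 0.807% of all probe sets were called, Dusp6, Btg1 and Ier5 were lower. Dusp6 fell from 4.22, 3.96, 3.80 and 3.83 by 1.29 ± 0.23 (2.44-fold, adjusted p = 0.00471) and was called with any 1 array left out. Btg1 fell from 7.15, 6.80, 6.71 and 7.26 by 0.87 ± 0.20 (adjusted p = 0.0267), and was lost without 10 h replicate 1 (0.11), 10 h replicate 4 (0.112) or 16 h replicate 1 (0.192). Ier5 fell from 2.69, 2.96, 3.07 and 2.72 by 1.07 ± 0.27 (adjusted p = 0.0482), and was lost in 12 of 16 arrays left out. Without 16 h replicates 1 and 2 together none of the 3 was called. Tested over all 5 times at once, 9 of 39 genes differed, against 4.79% of all probe sets. These were Gadd45a (adjusted p = 0.000522), Dusp6 (0.00101), Cdkn1a (0.00211), Btg1 (0.00467), Mcl1 (0.00792), Zfp36 (0.0134), Klf9 (0.0279), Ier5 (0.0402) and Ier2 (0.0482), a nuclear protein gene that read 2.26, 2.81 and 2.37 in vehicle rats and 1.43, 1.81 and 1.91 at 16 h.

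In the diet experiment, 1 of 38 genes was called between deficient and adequate rats, none between marginal or supplemented and adequate rats, and 1 between supplemented and deficient rats. Klf10 was lower in deficient rats. It read 2.85, 3.57, 3.77, 3.11 and 1.32 there, and from 3.52 (median 3.73) to 4.44 in adequate rats. Of the 5 deficient rats 3 lay below all adequate rats, and the difference was -1.11 ± 0.25 (2.16-fold lower, adjusted p = 0.0173), against 1.08% of all 27601 probe sets called. The lowest of these, deficient replicate 5, had a GAPDH 3′ to 5′ difference, a sign of RNA quality, of 0.922 (0.25 to 0.401 on the other deficient arrays) and the lowest correlation with its group of all diet arrays (0.770). Adequate replicate 5 had the highest difference of the series (1.37). Without both arrays Klf10 read -0.74 (adjusted p = 0.133), and without deficient replicates 1 and 2 as well -0.53 (0.615). The call was also lost without deficient replicate 5 alone (-0.71, adjusted p = 0.185), deficient replicate 1 (-1.03, 0.0607) or adequate replicate 1 (-1.07, 0.0666), in the first run alone (-1.43, 0.119), in the second run alone (-0.90, 0.119), with no adjustment for the run (-0.94, 0.181) and after quantile normalization (-0.85, 0.0908). In the test over all 4 diets Klf10 was again the 1 gene called (adjusted p = 0.0094; 0.913% of all probe sets).

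The genes next to Klf10 were Jund, an AP-1 subunit, which read 4.39, 4.50, 4.68, 5.24 and 4.13 in deficient rats and 4.89 to 5.37 (median 5.11) in adequate rats (-0.47 ± 0.22, adjusted p = 0.368), and Rhob, which read 2.17, 1.81, 2.25, 2.53 and 2.03 in deficient rats and -0.31 to 2.51 (median 1.66) in adequate rats (0.62 ± 0.31, adjusted p = 0.413). Both overlapped. The sign of Jund turned with the mean of its probe sets (0.45), and that of Rhob in the second run alone (-0.21). The lowest Rhob value was that of adequate replicate 5, and without it the difference was 0.31. Marginal rats differed from adequate rats in none of 38 genes by limma (2 at an unadjusted p under 0.05; 0% of all probe sets called). Srf, the factor that binds the CArG box, read 0.98 to 2.49 (median 1.62) in marginal and 1.95 to 2.20 (median 2.08) in adequate rats, and 6 of 7 marginal rats lay below all adequate rats (-0.46 ± 0.20, adjusted p = 1). All 5 deficient rats (1.77 to 1.88) also lay below all adequate rats in Srf, which was not called there. Nr4a1 read -3.28 to 0.82 (median -0.28) and -0.58 to 2.36 (median 0.05) (-0.96 ± 0.47), and Arc, a synaptic early gene, -0.73 to 1.00 (median -0.06) and -2.01 to 0.00 (median -1.11) (0.99 ± 0.51), each with an adjusted p of 1.

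The 2 supplemented rats differed from adequate rats in none of 38 genes by limma (2 at an unadjusted p under 0.05), against 0.0109% of all probe sets called. Both were in the first run, so their comparisons also rely on the run difference seen in the other diets. Gadd45g read 0.71 and 0.77 in them and 1.31 to 2.81 (median 2.17) in adequate rats (-1.47 ± 0.44, adjusted p = 1), and Fosb, an AP-1 subunit under the array median, -4.33 and -3.29 against -2.10 to 0.06 (median -1.10) (-2.47 ± 1.14). Nr4a1 read -2.04 and -0.71 (-1.26 ± 0.70), and the adjusted p was 1 for both. None of the 3 overlapped, and 1 other gene, Fosl1, lay above every adequate rat. The matching share of all probe sets is not given here. Against deficient rats, which read 2.22, 2.26, 2.41, 2.62 and 3.32, Gadd45g was lower (-2.05 ± 0.47, 4.15-fold, adjusted p = 0.0323; 0.42% of all probe sets called). The call was lost without supplemented replicate 1 (adjusted p = 0.314) or 2 (0.264), deficient replicate 5 (-1.85, 0.16) or adequate replicate 1 (0.0505), and in the first run alone (-2.22, 0.123). The next genes were Klf10, with 3.69 and 3.79 in supplemented rats (1.21 ± 0.36, adjusted p = 0.18), and Dusp1, with 3.26 and 3.91 in supplemented and 4.56, 4.64, 4.76, 2.43 and 1.42 in deficient rats (1.09 ± 0.45 after adjustment for the run, adjusted p = 0.483).

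More of the genes were called between the 2 runs of arrays than between any diets. This comparison was added after the data were seen. With diet in the fit, 12 of 38 genes were called between the runs, against 13.6% of all probe sets: 9 were higher in the second run (Jun, Egr1, Dusp1, Klf9, Errfi1, Zfp36, Nr4a1, Klf10 and Fos) and 3 lower (Dusp6, Cdkn1a and Junb). Jun read 1.34 to 2.49 (median 1.73) in the first run and 3.01 to 4.06 (median 3.41) in the second (1.78 ± 0.17, adjusted p = 8.38e-09). Egr1 read -2.35 to 2.16 (median 1.39) and 2.25 to 4.39 (median 3.18) (2.63 ± 0.36, adjusted p = 5.43e-06). Klf9 read 3.43 to 4.53 (median 4.18) and 4.61 to 5.60 (median 4.94) (0.91 ± 0.16, adjusted p = 0.000151). In these 3 genes the runs did not overlap, although deficient, marginal and adequate rats were present in both. The share of all probe sets whose runs did not overlap was not counted. Dusp1 was higher by 1.77 ± 0.24 (adjusted p = 5.63e-06) and Fos by 2.01 ± 0.60 (adjusted p = 0.023), while Dusp6 was lower (-1.04 ± 0.19; medians 4.41 in the first and 3.35 in the second run, adjusted p = 0.000262). What the run stands for in the handling of animals, RNA or arrays is not given in the sources used here. The lowest value of an array lay closer to its median in the second run, as given above, and its part in these differences was not tested.

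**Figure D4:**
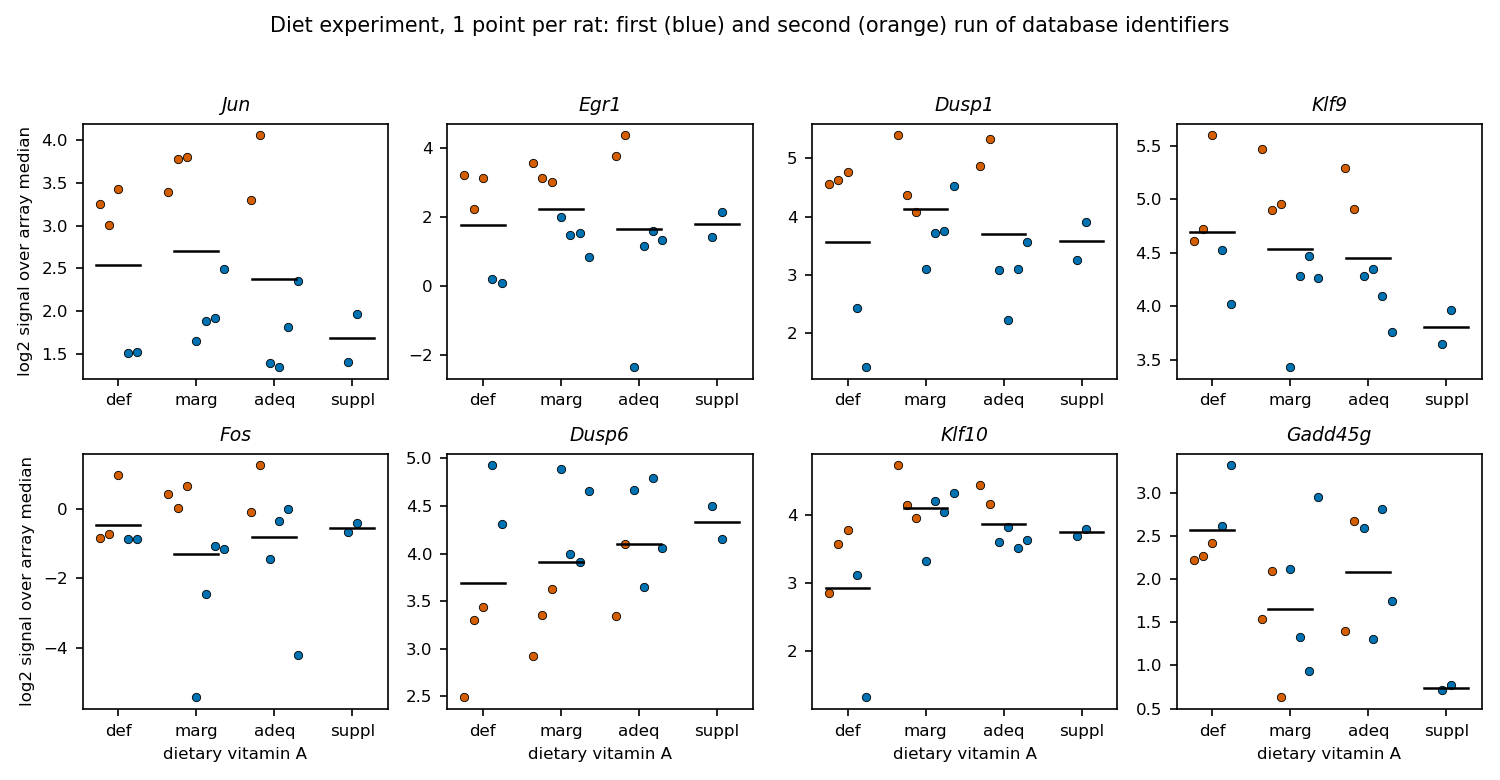
Level of 8 immediate early genes in each liver of the diet experiment, as log2 signal relative to the array median (y axis), by diet (x axis). Blue points are rats of the first run of arrays, orange points rats of the second, and bars are group means; Jun, Egr1 and Klf9 separate by run within each diet that both runs hold.

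Across all 13 groups, set side by side without a test since the experiments were not run together, the minute series held most of the highest means. The highest of the 13 group means was at 30 min for 9 genes (Fos, Jun, Egr1, Nr4a1, Nr4a2, Myc, Dusp1, Zfp36 and Gadd45b), at 60 min for 7 and at 90 min for 5. The lowest was at 16 h for 12 genes and at 10 h for 9. As deposited, the widest ranges of group means other than that of Egr1 have low ends near background, where they depend on how far a probe set can fall. The lowest group mean of Egr1 lies above the array median. As deposited, the 5 widest were those of Gadd45b (5.55, from -1.97 in supplemented rats to 3.58 at 30 min), Fos (5.50, from -3.48 at 10 h to 2.03 at 30 min), Rgs1 (4.60, from -3.59 at 10 h to 1.01 at 60 min), Nr4a1 (4.17, from -2.40 at 16 h to 1.77 at 30 min) and Egr1 (3.43, from 0.63 at 10 h to 4.06 at 30 min). With the offset of 0.25 of the array median, the 5 widest were those of Gadd45b (4.59), Fos (3.40), Egr1 (3.22), Nr4a1 (3.06) and Gadd45a (3.06). The single rats spread widely in the hour series: Fos read -4.85, -1.52 and -0.86 in the 0 h vehicle rats and -5.19, -0.23, -4.38 and -4.10 at 10 h. Gadd45b read -2.15 and -1.79 in the 2 supplemented rats. The narrowest ranges among genes above the array median were those of Jund (0.72, from 4.41 to 5.13), Klf2 (0.74, from 1.26 to 2.00) and Srf (0.80, from 1.55 to 2.35). Jund, whose protein is the constitutive JUN family member, Klf2 and Srf were called between no diets or times. In all, 22 of the 39 genes were called between no diets or times, the AP-1 genes Fosb, Fosl1, Fosl2, Jun, Junb, Jund, Atf3 and Maff among them.

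**Figure D5:**
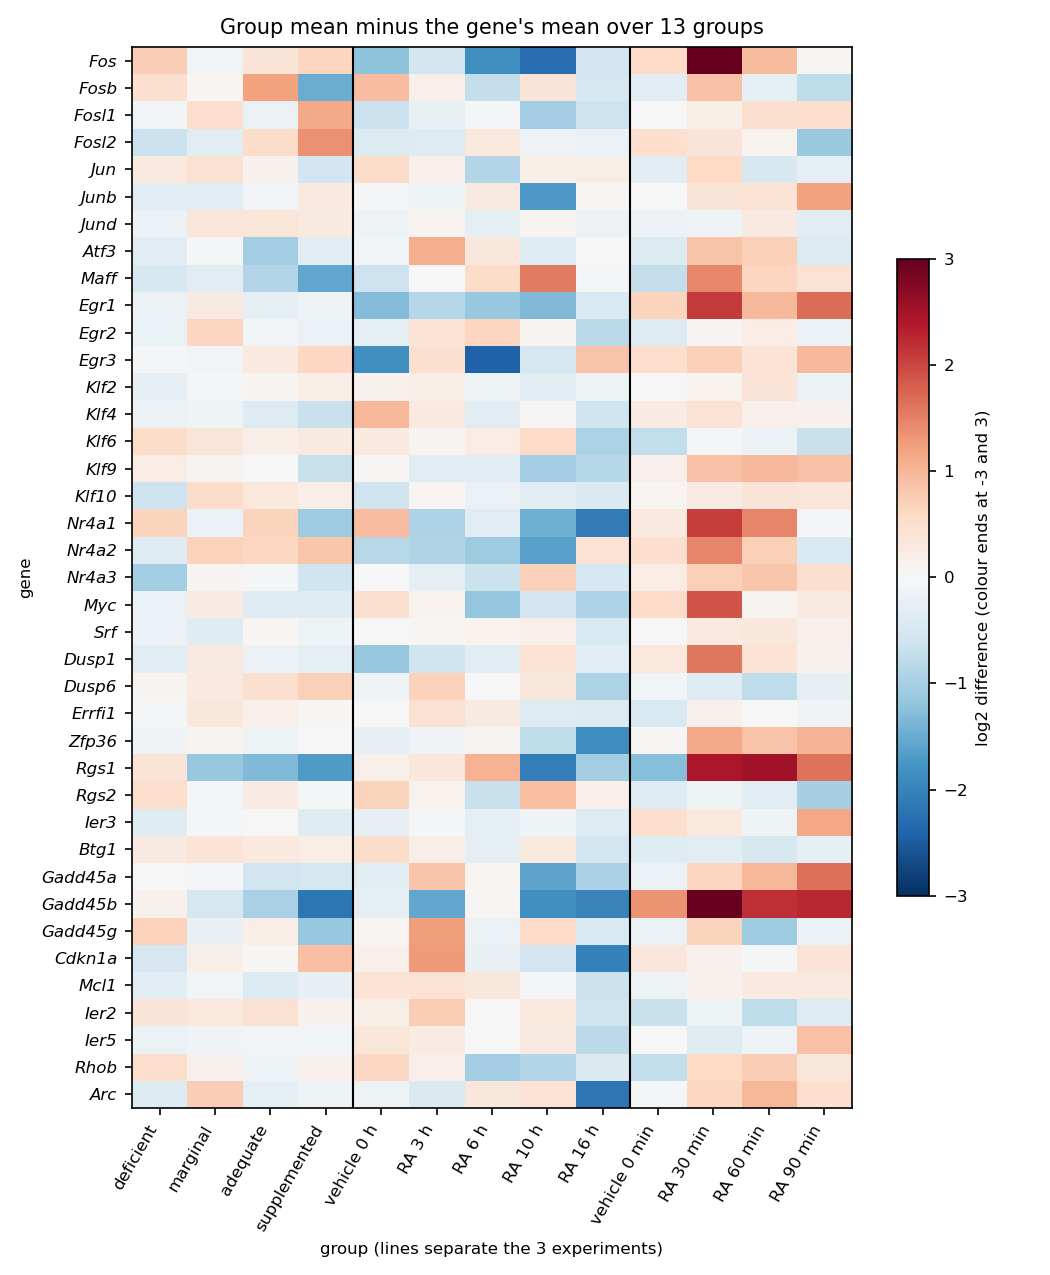
Heat map of 39 immediate early genes (rows, ordered by role) over the 13 groups (columns, by experiment), coloured by the group mean minus the gene's mean over the 13 groups on the log2 scale, with colours ending at -3 and 3. The 30 min column holds the highest mean of 9 genes, and the 10 h and 16 h columns together the lowest of 21.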

How the data were processed

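Liver RNA of 47 rats was hybridized to Affymetrix arrays, 1 rat per array. Per the submitters' processing notes the arrays were processed with GCOS (version not given in the sources used here); the deposited values are log2 signals centred by array on a median of 0, with a lowest value per array, and were used without further scaling. Probe sets were named from the platform annotation: 20832 carried 1 gene symbol, 436 several and 9831 none, and 57 control probe sets were left out. Within each experiment limma 3.58.1 (R 4.3.3) was fitted to all groups (27601, 28869 and 22781 probe sets, each exceeding the 40th percentile of the array on 2 arrays or more), with empirical Bayes moderation, a variance trend, and in the diet experiment the run of the arrays' database numbers as a covariate; p-values were adjusted by Benjamini-Hochberg over all probe sets tested, at 0.05. The fitting was tested on simulated data. Values in every array (lowest, median and highest in groups of over 5 rats) are given for all members called in a comparison, or the 3 with the smallest p where fewer than 3 were called, and group means for the 5 widest and 3 narrowest ranges. The members and all lists were chosen with earlier results of these data known. Labels name separate rats; housing and litter are not given, so p-values measure the spread between these rats. The number of arrays limits the precision. Alternatives were quantile normalization, no filter, no variance trend, array weights, an offset of 0.25 of the array median, the mean of a gene's probe sets, the replicate number as a block, single arrays left out and, for diet, other treatments of the run.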

Additional observations from a re-analysis of the deposited data

Results flagged for a closer look

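Single rats that stood apart within their group were looked for among the members in groups of 4 to 10 rats. Of 41 combinations of member and group checked, 2 (4.88%) held a rat whose gap to its nearest neighbour was large for the range of the group, and chance gives about 1 in 20. Arc read -2.396 in deficient replicate 3, and the nearest of the other 4 deficient rats read -1.126. Nr4a1 read -3.282 in marginal replicate 4, and the nearest of the other 6 marginal rats read -0.632.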

How the results depend on the processing

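The 31 calls of single genes were recomputed under 240 alternatives in all, leaving aside single arrays left out: 158 kept direction and call, 81 kept direction and lost the call, and 1 turned. The counts of members called depended most on the variance trend. Without it they were 0 for deficient against adequate, supplemented against deficient, any diet, 10 h, 16 h, 10 against 6 h, 16 against 10 h, any hour, 60 min and 90 min, and 1 for 30 min, 60 against 30 min and any minute; 29 of the 31 calls were lost. After quantile normalization the counts were 0 for deficient against adequate, 1 at 6 h, 1 at 16 h, 2 for 10 against 6 h, 4 for any hour, 5 at 60 min and 2 for 90 against 60 min, and calls over all probe sets shifted upwards (deficient against adequate from 22 higher and 277 lower to 119 and 218; 10 h from 31 and 110 to 168 and 129; 60 min from 50 and 38 to 64 and 27; 90 min from 76 and 39 to 90 and 24). Without the filter 10 against 6 h gave 0. Array weights gave 3 at 6 h, 4 at 10 h and 1 for 16 against 10 h. Over all 28869 probe sets the calls then went from 58 to 272, from 141 to 1296 and from 233 to 235. The offset gave 2 for any diet, 3 at 90 min and 1 for 90 against 60 min, with calls over all probe sets going from 252 to 309, from 115 to 113 and from 22 to 44. The mean of a gene's probe sets gave 0 at 10 h and 4 at 16 h, and turned Jund between deficient and adequate rats (0.45) and Ier5 between 16 and 10 h (0.20). With no run covariate, in the first run alone and with the run as a random block, deficient against adequate, supplemented against deficient and any diet gave 0; Rhob turned in the second run alone (-0.21). The causes were not tested.

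With the replicate number as a block, 0 members were called for deficient against adequate, 10 h and 10 against 6 h, and 1 for 16 against 10 h. The median correlation of deviations between rats with the same number was 0.0274 in the diet experiment (-0.0939 to 0.150), 0.00157 in the hour series and -0.00319 in the minute series. In the diet experiment the replicate numbers mostly follow the run of arrays, so rats with the same number mostly share a run. These correlations cannot tell whether such rats share anything else.

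Leaving out each array in turn gave 0 to 2 called members for deficient against adequate, supplemented against deficient, any diet, 10 h and 90 against 60 min, 0 to 1 for 10 against 6 h, 0 to 0 for marginal and supplemented against adequate, 3 h, 6 h and 6 against 3 h, 1 to 8 at 16 h, 1 to 6 for 16 against 10 h, 4 to 12 for any hour, 3 to 7 at 30 min, 1 to 4 at 60 min and for 60 against 30 min, 1 to 5 at 90 min and 7 to 12 for any minute. The following were chosen after seeing the data. Without 16 h replicates 1 and 2 the counts were 2 at 6 h, 2 at 10 h, 1 at 16 h, 0 for 16 against 10 h and 5 for any hour. Without the 2 diet arrays of highest GAPDH 3′ to 5′ difference (deficient replicate 5 and adequate replicate 5), deficient against adequate, supplemented against deficient and any diet gave 0. The same 3 gave 0 without deficient replicates 1 and 2 as well, a set taken from an earlier analysis of these data that leaves 2 deficient rats; deficient replicate 4, which was kept, correlated with its group no better (0.808). Between the runs of arrays the settings gave 9 to 14 called members.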
